A study of Mus musculus with 6 samples.

Results

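The genes described here encode the core proteins of the basement membrane: the nidogens (Nid1, Nid2), perlecan (Hspg2), the collagen IV chains α1 and α2 (Col4a1, Col4a2) and the laminin chains α4, α5, β1, β2 and γ1 (Lama4, Lama5, Lamb1, Lamb2, Lamc1). They were chosen by symbol, as the probes whose RefSeq accession maps to one of these 10 genes. Of the 17178 genes that could be named on the array, 9 of the 10 were found, with 13 probes in all, and Lamc1 was not matched to a probe by accession and has no value here. The tissue was the tooth germ of the lower 1st molar, taken on the day of birth (P0) from mice of the strain 129/Sv, all labelled male. The study compared Perp-null mice (3 samples) with wild-type mice (3 samples), each on 1 one-colour array. Perp belongs to the desmosomes that join epithelial cells to each other, and Perp-null denotes a loss of the gene in the whole animal, not in 1 cell type. The labels call the samples biological replicates without saying how many animals or litters each came from, so p-values measure only the spread between these samples. The arrays are called PN1, PN2 and PN3 and WT1, WT2 and WT3, after the labelled genotype and replicate number.

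The basement membrane is the thin sheet of matrix under epithelia and around vessels, muscle fibres and nerves. Laminins, each built of an α, a β and a γ chain, form a network at the cell surface, collagen IV forms a second, cross-linked network, and nidogens and perlecan bind to both. In the tooth germ such a sheet separates the enamel epithelium from the dental mesenchyme, where ameloblasts and odontoblasts face each other, and other such sheets surround the capillaries of the dental papilla. The main collagen IV molecule of most tissues holds chains α1 and α2, laminin α5 is the chief α chain of mature epithelial sheets, and laminin α4 is typical of vessel walls.

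RefSeq promoter windows of build GRCm38.p6, from 250 bases before to 50 bases after the start site, were held for 7 of the 10 genes. The windows of Col4a1 and Col4a2 are shown because the data bear on both chains together and because the genes share their promoter region. They lie on opposite strands of chromosome 8, with start sites 21 bases apart and windows that overlap by 78 bases. The window of Nid1 is shown because it had the largest difference between the labelled groups on the scans, with the brightest probe standing for each gene. The Nid1 window lies at chr13:13437352-13437651 (plus strand), that of Col4a1 at chr8:11312777-11313076 (minus strand) and that of Col4a2 at chr8:11312555-11312854 (plus strand). Each is written from 5′ to 3′ on the strand of its gene, and capitals mark exact matches, on either strand, to the GC box GGGCGG, the CCAAT box CCAAT and the TATA box TATAAA, none of which overlap each other there.
Nid1: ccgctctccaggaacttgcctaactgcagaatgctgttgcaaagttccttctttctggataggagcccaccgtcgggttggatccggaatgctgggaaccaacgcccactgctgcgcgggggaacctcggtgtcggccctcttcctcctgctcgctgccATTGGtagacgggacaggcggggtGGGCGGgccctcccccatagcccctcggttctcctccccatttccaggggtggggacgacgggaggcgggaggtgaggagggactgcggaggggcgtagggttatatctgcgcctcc
Col4a1: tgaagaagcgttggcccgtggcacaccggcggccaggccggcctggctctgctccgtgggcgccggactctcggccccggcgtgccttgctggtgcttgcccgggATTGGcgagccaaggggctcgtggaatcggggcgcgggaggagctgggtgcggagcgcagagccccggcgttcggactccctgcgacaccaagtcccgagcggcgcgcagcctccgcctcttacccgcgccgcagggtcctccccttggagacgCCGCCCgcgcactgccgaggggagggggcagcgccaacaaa
Col4a2: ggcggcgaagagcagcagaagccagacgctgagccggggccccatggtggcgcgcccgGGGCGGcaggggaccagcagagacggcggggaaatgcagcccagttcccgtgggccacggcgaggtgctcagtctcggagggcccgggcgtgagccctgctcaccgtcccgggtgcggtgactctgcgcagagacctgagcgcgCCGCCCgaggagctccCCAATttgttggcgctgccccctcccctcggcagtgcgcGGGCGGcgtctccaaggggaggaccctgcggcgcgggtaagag
Nid1 and Col4a1 each held 1 GC box and 1 CCAAT box, and Col4a2 held 3 GC boxes and 1 CCAAT box. None of the 3 windows held the TATA letters. Of 32851 mouse promoter windows of the same length, 35.7% held a GC box, 37.4% a CCAAT box and 13.6% a TATA box, so each of these matches is common, and a match is not evidence of binding.

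The array data exist in 2 sources that disagree about which sample is which, so the results for the 9 genes are given from each. The scanner files hold spot intensities, and are called the PN1 scan and so on. The authors' processed value table holds log2 values, and its entries are called the PN1 column and so on. On the scans, the Perp probe had a log2 signal (scaled to the array's 75th percentile) of 5.87, −6.81 and 5.97 on PN1, PN2 and PN3, against 5.96, −5.06 and 5.91 on WT1, WT2 and WT3. The PN1, PN3 and WT2 scans therefore went against their labels. In the value table the same probe had log2 values of 7.51, 8.24 and 7.26 in the PN1, PN2 and PN3 columns, against 17.01, 16.95 and 16.98 in the WT1, WT2 and WT3 columns, as labelled (log2 fold change −9.31, SE 0.24, limma adjusted p = 6.12e-06). The labels do not tell if this probe falls within the deletion. Xist and Y-linked genes went against the male label on the PN1, PN2 and WT2 scans and in the PN1, PN3 and WT3 columns.

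The columns were set against the scans over 26431 probes well above background on all 6 scans, after the raw median spot signals had been quantile normalized. For 5 columns 1 scan matched closely, with an SD of the log2 difference between 0.050 and 0.061, where the next nearest scan of each was at 0.366 or more. These pairs were the PN1 column with the WT2 scan, the PN3 column with the PN2 scan, the WT1 column with the WT1 scan, the WT2 column with the WT3 scan and the WT3 column with the PN1 scan. In 4 of these 5 pairs the labels differed. The PN2 column and the PN3 scan had no close partner. The Perp probe separated the labelled groups of columns but not those of scans (log2 fold change −0.59, SE 4.32, limma unadjusted p = 0.896). A difference between the labelled groups of scans is therefore not a contrast of the 2 genotypes. Whether every column label is right was not settled, since sex genes went against the male label in the PN1, PN3 and WT3 columns. No array was regrouped by its signal. Each comparison below follows the labels of its own source, and Perp-null and wild type name those labels only. Between 72.8% and 82.3% of gene probes were well above background on a scan, no spot was saturated, and all 13 probes of the basement membrane genes were well above background on all 6 scans. The number of arrays limits the precision.

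**Figure D1:**
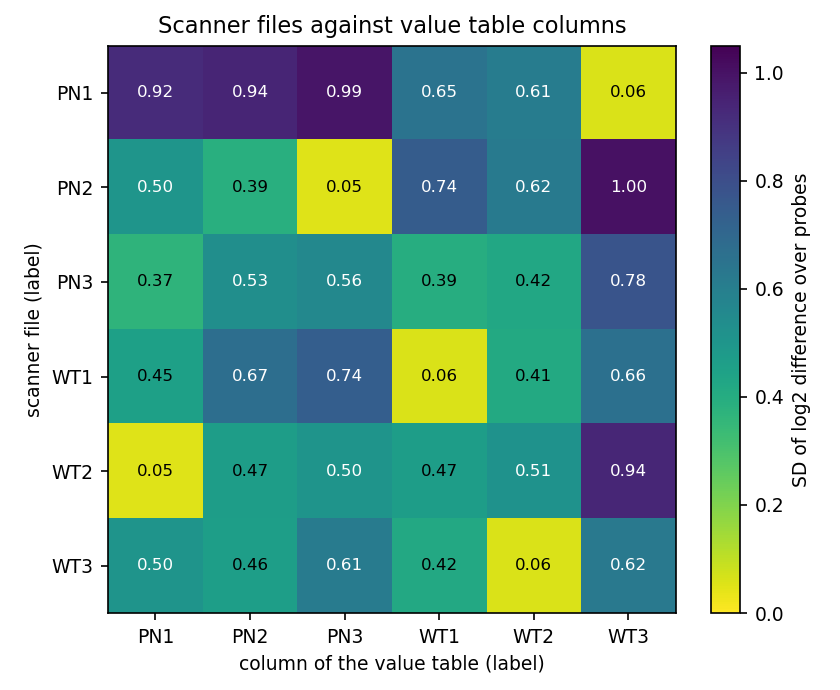
Standard deviation of the log2 difference over probes between each scanner file (vertical axis) and each column of the value table (horizontal axis), labelled Perp-null before labelled wild type. The 5 pale cells at 0.05 to 0.06 are the close pairs, and only WT1 pairs with its own label.

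No basement membrane gene differed between the labelled groups past the threshold of 0.05 on the adjusted p, in either source. On the scans 0 of 9 passed (limma), where 0% of all 26677 features tested passed, although 630 features (2.36%) had an unadjusted p under 0.05. All 9 had a lower mean on the scans labelled Perp-null, which 61% of all features and 62.7% of those at least as bright as the dimmest of the 9 genes had, and their median log2 fold change was −0.56, against −0.08 for all features. At an unadjusted p under 0.05, 5 of 9 were lower on the Perp-null scans (Nid1, Nid2, Col4a2, Lama4 and Lamb1), where 1.78% of all features were, and 3.62% of those as bright. In the same 5 genes all 3 Perp-null scans lay below all 3 wild-type scans, as in 3.49% of all features and 6.43% of those as bright. Both counts were 0 when each array was scaled to its median in place of its 75th percentile, and the count at an unadjusted p was 2 without the WT1 scan and 3 without PN1 or without WT2. With limma array weights 3 of 9 passed at the adjusted p (Nid1, Nid2 and Lama4), where 2.1% of all features did. Leaving out the PN1, PN3 and WT2 scans, which went against their labels in Perp, left PN2 against WT1 and WT3, with the spread taken from the 2 wild-type scans alone. With 1 scan on the Perp-null side, no count of passing genes is read from that fit. PN2 also differed from WT1 and WT3 in Xist (log2 signal −1.06, against −6.96 and −7.13). Its background was lower, with a raw negative control median of 32, against 90 and 80. With the replicate number as a block, 1 feature of the whole table passed, Btbd9 (log2 fold change −3.86, limma adjusted p = 0.032), and still none of the 9. The block took Col4a1 to an unadjusted p of 0.0271, which made 6 of 9 lower at that level, where 1.91% of all features were.

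By the value table, 0 of 9 passed (limma), where 23.6% of all features did, 2304 higher and 3986 lower in the columns labelled Perp-null. Those calls lay mostly among dim features, since 50 of the 9342 features as bright as the 9 genes passed (0.535%). The calls also rested on few columns: 1 feature passed in place of 6290, Perp itself, without the PN2 column, and likewise without both columns of replicate 2, without both of replicate 3 and with the replicate block. The median log2 fold change of the 9 genes was −0.03 in the table, against 0.01 for all features, and 6 of 9 had a lower mean, where 48.5% of all features and 43.9% of those as bright had. That count was 2 without the WT1 column, 3 without PN3 and 8 without WT3. Lamb2 alone was lower at an unadjusted p under 0.05, where 21.7% of all features were and 2.13% of those as bright. Leaving out the PN1, PN2, PN3, WT1 or WT3 column took it above 0.05. It alone had columns that did not overlap, where 24.5% of all features were lower in that way and 4.61% of those as bright. Nid1, Lama4 and Lama5, lower on the Perp-null scans, had a higher mean in the Perp-null columns. Less RNA per cell and fewer cells of a type that makes these proteins cannot be told apart in bulk tissue.

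**Figure D2:**
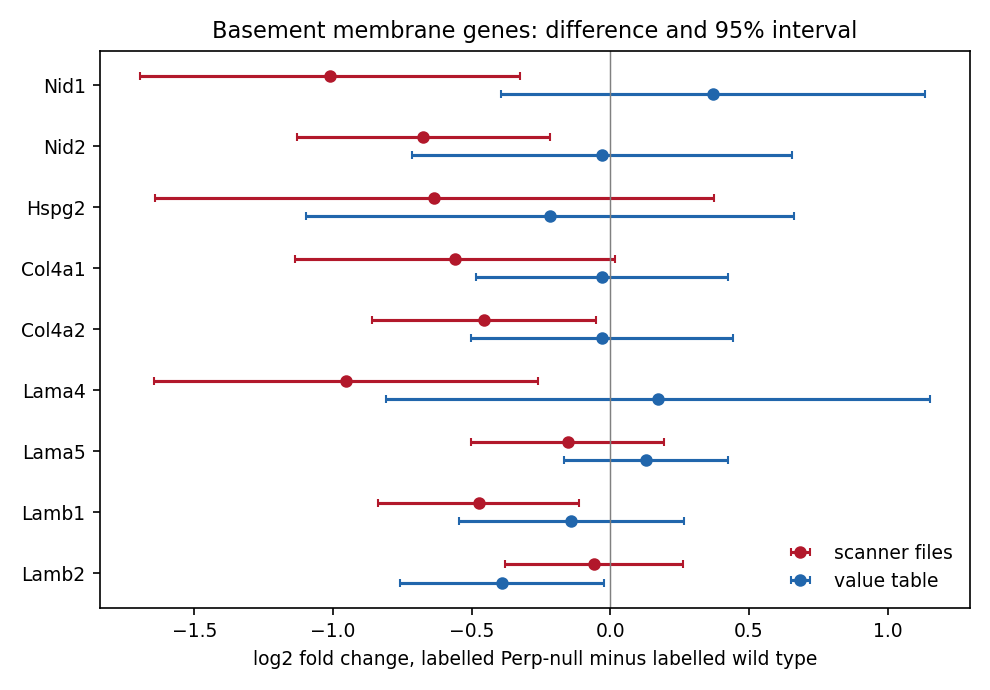
Log2 fold change (horizontal axis), labelled Perp-null minus labelled wild type, of the 9 measured genes on the scans (red) and in the value table (blue), with 95% confidence intervals from limma. The red points run from −1.01 to −0.059 and all lie below 0, while the blue points run from −0.39 to 0.37 on either side of it.

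The nidogens link the laminin and collagen IV networks. With the brightest probe standing for each gene, they had the lowest unadjusted p of the 9 on the scans. With every probe fitted on its own, dimmer probes of other genes had lower limma unadjusted p. These were 0.00246 for Col4a2, 0.00288 for Col4a1 and 0.00445 and 0.00813 for Lama4, against 0.0106 for Nid1 and 0.00899 for Nid2. None of these probes passed the adjusted threshold. Nid1 had a log2 signal of 0.95, 2.14 and 1.55 on the PN1, PN2 and PN3 scans, against 2.47, 2.69 and 2.51 on the WT1, WT2 and WT3 scans. The groups did not overlap, PN1 was the lowest, and the wild-type scans lay close together, so that the means were 1.55 ± 0.60 for Perp-null and 2.56 ± 0.12 for wild type (SD, n = 3 each). The log2 fold change was −1.01 (SE 0.29, limma unadjusted p = 0.0105, adjusted p = 1.00), which is 2.01-fold lower. In the table Nid1 had log2 values of 13.50, 13.51 and 13.12 in the PN1, PN2 and PN3 columns, against 13.42, 13.44 and 12.16 in the WT1, WT2 and WT3 columns. Here 5 columns lay within 13.12 to 13.51 and WT3 was low, and the log2 fold change was 0.37 with a 95% confidence interval from −0.39 to 1.13 (limma adjusted p = 0.499). Without the WT3 column it was −0.05.

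Nid2, the second nidogen, had a log2 signal of −0.50, −0.79 and −0.74 on the PN1, PN2 and PN3 scans, against 0.24, −0.12 and −0.13 on the WT1, WT2 and WT3 scans. The groups did not overlap, and unlike Nid1 the lowest scan was PN2. The log2 fold change was −0.67 (SE 0.19, limma unadjusted p = 0.0104, adjusted p = 1.00). In the table Nid2 had log2 values of 10.84, 10.68 and 10.43 in the PN1, PN2 and PN3 columns, against 11.09, 10.90 and 10.05 in the WT1, WT2 and WT3 columns. The wild-type columns enclosed the Perp-null ones, and the log2 fold change was −0.03 (95% confidence interval −0.71 to 0.65).

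Hspg2 encodes perlecan, the large heparan sulfate proteoglycan of basement membranes. Its log2 signal was 3.14, 3.10 and 4.47 on the PN1, PN2 and PN3 scans, against 4.47, 4.51 and 3.64 on the WT1, WT2 and WT3 scans. The groups overlapped, with PN3 as high as WT1, and the standard error was the largest of the 9 genes on the scans (log2 fold change −0.63, SE 0.42, limma adjusted p = 1.00). In the table it had log2 values of 15.32, 14.21 and 14.22 in the PN1, PN2 and PN3 columns, against 15.53, 14.57 and 14.30 in the WT1, WT2 and WT3 columns. In each group replicate 1 was by far the highest column, and each Perp-null column lay below the wild-type column of the same number. The log2 fold change was −0.22 (95% confidence interval −1.10 to 0.66).

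Col4a1 encodes the α1 chain of collagen IV. Its brighter probe had a log2 signal of 2.41, 3.32 and 2.91 on the PN1, PN2 and PN3 scans, against 3.54, 3.57 and 3.21 on the WT1, WT2 and WT3 scans. PN2 overlapped the wild-type range, and the log2 fold change was −0.56 (SE 0.24, limma unadjusted p = 0.0554, adjusted p = 1.00). Its dimmer probe had 1.25, 1.50 and 1.48 on the Perp-null scans, against 2.13, 2.21 and 1.86 on the wild-type scans. That probe did not overlap between the groups and had a log2 fold change of −0.66. In the table the brighter probe had log2 values of 14.24, 14.03 and 13.90 in the PN1, PN2 and PN3 columns, against 14.46, 14.10 and 13.70 in the WT1, WT2 and WT3 columns. The groups overlapped fully there, and the log2 fold change was −0.03 (95% confidence interval −0.48 to 0.42) with this probe and −0.21 with the dimmer one.

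Col4a2 encodes the α2 chain, which joins the α1 chain in 1 molecule. Its brighter probe had a log2 signal of 1.71, 2.28 and 2.15 on the PN1, PN2 and PN3 scans, against 2.42, 2.53 and 2.55 on the WT1, WT2 and WT3 scans. The groups did not overlap, and the log2 fold change was −0.46 (SE 0.17, limma unadjusted p = 0.0323, adjusted p = 1.00). The dimmer probe had a log2 fold change of −0.72 and did not overlap either. In the table the brighter probe had log2 values of 13.31, 13.47 and 12.96 in the PN1, PN2 and PN3 columns, against 13.44, 13.50 and 12.89 in the WT1, WT2 and WT3 columns. Replicate 3 was the lowest column in each group, and the log2 fold change was −0.03 (95% confidence interval −0.50 to 0.44), as for Col4a1.

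Lama4 encodes laminin α4. The brightest of its 3 probes had a log2 signal of −0.21, 0.91 and 0.52 on the PN1, PN2 and PN3 scans, against 1.33, 1.57 and 1.18 on the WT1, WT2 and WT3 scans. The groups did not overlap and PN1 was the lowest, as for Nid1. The log2 fold change was −0.95 (SE 0.29, limma unadjusted p = 0.0143, adjusted p = 1.00), and the other probes gave −1.04 and −1.02. In the table the same probe had log2 values of 12.30, 12.04 and 11.47 in the PN1, PN2 and PN3 columns, against 12.43, 12.11 and 10.75 in the WT1, WT2 and WT3 columns. WT3 was low, the log2 fold change was 0.17 (95% confidence interval −0.81 to 1.15), and it was −0.33 without the WT3 column. The other probes gave 0.46 and 0.68 in the table, with WT3 lowest in each.

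Lama5 encodes laminin α5. Its log2 signal was 2.30, 2.64 and 2.66 on the PN1, PN2 and PN3 scans, against 2.80, 2.73 and 2.54 on the WT1, WT2 and WT3 scans. The groups overlapped, and the log2 fold change was −0.15 (95% confidence interval −0.50 to 0.19). In the table it had log2 values of 13.68, 13.66 and 13.70 in the PN1, PN2 and PN3 columns, against 13.76, 13.47 and 13.42 in the WT1, WT2 and WT3 columns. The Perp-null columns were nearly level (SD 0.02, n = 3), and the log2 fold change was 0.13 (95% confidence interval −0.17 to 0.43). Both intervals include 0.

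Lamb1 and Lamb2 encode the β chains that alternate in these laminins, laminin β2 being the form of the neuromuscular junction and the kidney filter. Lamb1 had a log2 signal of 2.12, 2.06 and 2.47 on the PN1, PN2 and PN3 scans, against 2.83, 2.70 and 2.55 on the WT1, WT2 and WT3 scans. The groups did not overlap, although PN3 came close to WT3 (log2 fold change −0.48, SE 0.15, limma unadjusted p = 0.0173, adjusted p = 1.00). In the table Lamb1 had log2 values of 13.69, 13.38 and 13.20 in the PN1, PN2 and PN3 columns, against 13.83, 13.49 and 13.37 in the WT1, WT2 and WT3 columns. As for Hspg2, each Perp-null column lay below the wild-type column of the same number while the groups overlapped. The log2 fold change of Lamb1 was −0.14 (95% confidence interval −0.54 to 0.26).

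For Lamb2 the groups stood apart in the table and overlapped on the scans. Its log2 signal was 0.66, 0.93 and 0.77 on the PN1, PN2 and PN3 scans, against 0.89, 0.87 and 0.77 on the WT1, WT2 and WT3 scans. These 6 values spanned 0.28, the smallest range of the 9 genes, and the log2 fold change was −0.06 (SE 0.13, limma adjusted p = 1.00). In the table it had log2 values of 11.53, 11.59 and 11.44 in the PN1, PN2 and PN3 columns, against 12.00, 11.71 and 12.02 in the WT1, WT2 and WT3 columns. The columns did not overlap, and the log2 fold change was −0.39 (95% confidence interval −0.76 to −0.02, limma unadjusted p = 0.0399, adjusted p = 0.118), which is 1.31-fold lower and did not pass.

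Most of the 9 genes had the same lowest array within a source. Each gene was centred on its mean over the 6 arrays, and the median of the 9 genes was −0.57, 0.03 and −0.12 on the PN1, PN2 and PN3 scans, against 0.38, 0.25 and 0.09 on the WT1, WT2 and WT3 scans. PN1 stood lowest, and it was the lowest scan for Nid1, Col4a1, Col4a2, Lama4, Lama5 and Lamb2. In the table the median was 0.18, 0.02 and −0.28 in the PN1, PN2 and PN3 columns, against 0.34, 0.03 and −0.37 in the WT1, WT2 and WT3 columns. WT3 stood lowest there, and the WT3 column is the close match of the PN1 scan. The lowest values of Nid1, Col4a1, Col4a2, Lama4 and Lama5 thus came, in both sources, from this matched pair, which is labelled Perp-null as a scan and wild type as a column. Over all features the median was 0.32 on the PN1 scan and 0.01 in the WT3 column. On the scans the background differed too. The raw median of the negative controls was 127 on PN1, the highest, and 32 and 37.5 on PN2 and WT2, the lowest. The median of all features on PN2 and WT2 was −0.27 and −0.28. Features as bright as the 9 genes were not set apart in these medians. Whether the low values were particular to the 9 genes was not tested.

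**Figure D3:**
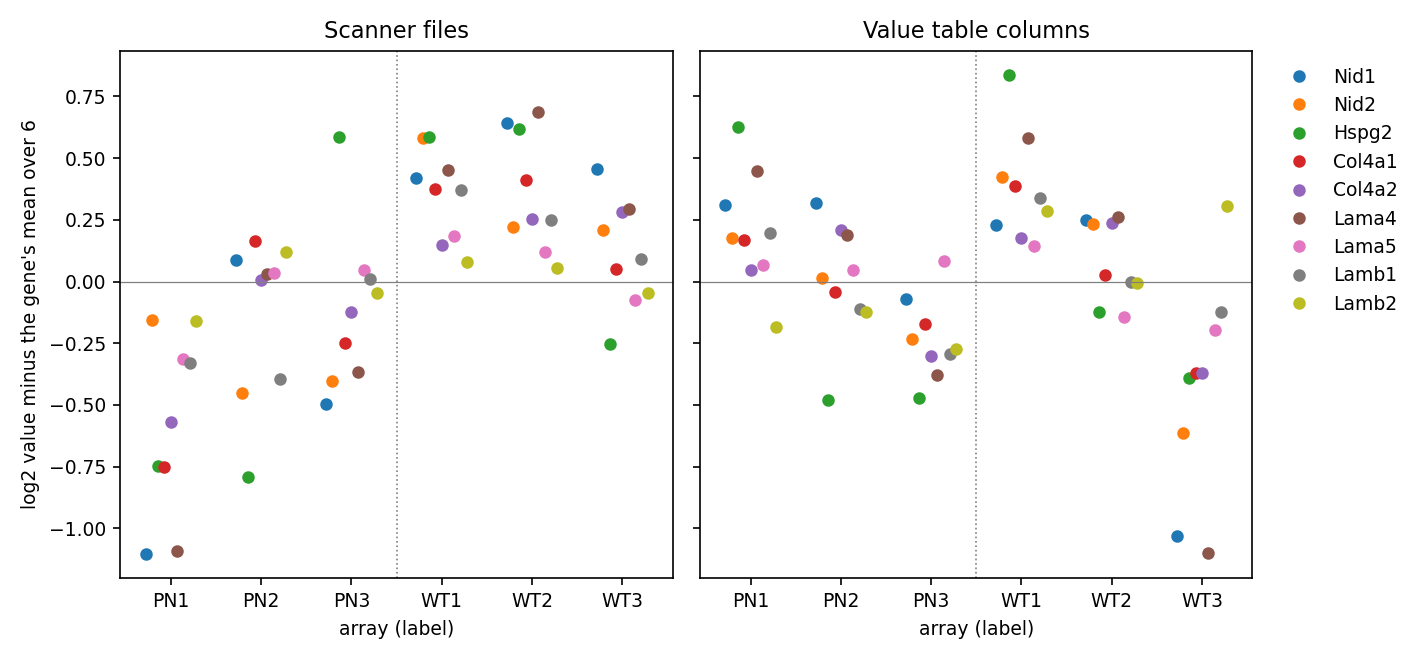
Log2 value of each of the 9 genes minus its mean over 6 arrays (vertical axis), for the scanner files (left panel) and the value table (right panel), with arrays labelled Perp-null left of those labelled wild type. Nid1 and Lama4 reach their lowest point, about 1.1 below their mean, on the PN1 scan and in the WT3 column.

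Among themselves, the genes were compared by the root mean square difference of their centred log2 values over the 6 arrays, as a description. Nid1 and Lama4 differed by 0.09 on the scans and by 0.21 in the table, and Col4a1 and Col4a2 by 0.18 on the scans and by 0.17 in the table. By the same measure the named genes outside the set most like Nid1 on the scans were Tspan18, Calca and Icam2 (0.090, 0.108 and 0.126), and in the table Rhoj, Sh3bgrl and Ctnnd1 (0.054, 0.063 and 0.065). Nearest to Lama4 were Sox18, Fbxl7 and Tspan18 on the scans (0.089, 0.098 and 0.099) and Jam3, Pcolce and Tbx2 in the table (0.070, 0.075 and 0.079). Among the nearest to Col4a1 were Fzd1 and Slc9a3r2 on the scans (0.101 and 0.104) and Cpne2, Tspan15 and Atp6v1a in the table (0.038, 0.040 and 0.043). Nid2 was nearest to Ifi27, Akap12 and Meox1 on the scans, Hspg2 to Scara3, Sorbs2 and Gpr146, and Lama5 to Dnajc5, Srebf1 and Snrk. In the table Nid2 was nearest to Il6st, P4htm and Acadm, Hspg2 to Cachd1, 1700025G04Rik and Stx18, and Lama5 to Kat6a, Sppl3 and Trrap. The genes named for each of these 6 were different ones in each source. They were among the nearest of 13227 genes on the scans and 13254 in the table, and over 6 arrays many genes come close to any profile.

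The wider basement membrane was read from 4 lists, each as its count and its median beside −0.08 for all features on the scans and 0.01 in the table. Of all features, 61% had a lower mean on the Perp-null scans and 48.5% in the Perp-null columns. Of 27 other basement membrane proteins tested, 23 had a lower mean on the Perp-null scans (median −0.28) and none passed (limma). The smallest unadjusted p there were those of Egflam (pikachurin, log2 fold change −1.28), Lama1 (−0.84), Sparc (a collagen-binding matrix protein, −0.67) and Col15a1 (−0.61), all with limma adjusted p = 1.00. In the table the same genes had 1.14, 0.29, −0.07 and 0.38, so 3 of these 4 had the opposite direction there. In the Perp-null columns 14 of 27 had a lower mean (median −0.01). There 2 of 27 passed, both dim, a lower share than the 23.6% of all features that did. Egfl6 rose by 1.50 (limma adjusted p = 0.0216) and Hmcn1, hemicentin, by 1.30 (adjusted p = 0.0393). On the scans Egfl6 had 0.34 and Hmcn1 −0.70, and in the table neither passed without the PN2 column. Ntn1 (netrin 1, log2 fold change 0.82, adjusted p = 0.0783) and Lamc3 (laminin γ3, −0.69, adjusted p = 0.0892) came next and did not pass, with −0.10 and −0.51 on the scans.

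Of 14 receptors of the basement membrane, 12 had a lower mean on the Perp-null scans (median −0.16) and 9 in the Perp-null columns (median −0.04), and none passed in either source (limma). On the scans the collagen receptor Ddr2 had a log2 fold change of −0.71, Itgb1, the integrin β1 chain shared by most laminin and collagen receptors, −0.30, Sdc4 −0.29 and Dag1, dystroglycan, −0.24. In the table these 4 had −0.02, −0.05, 0.14 and −0.07. Itga6, the laminin-binding integrin α6 chain, had 0.18 and Itga7 0.20 in the table, and −0.16 and −0.15 on the scans. The list for collagen IV assembly held 16 genes of collagen folding, cross-linking and secretion, which are not particular to collagen IV. All 16 had a lower mean on the Perp-null scans (median −0.23), where P3h1 (prolyl 3-hydroxylase 1, −0.62) and its partner Crtap (−0.59) had the smallest p. In the Perp-null columns 12 of 16 had a lower mean (median −0.12), and P3h1 had 0.03 and Crtap −0.20. The direction of this list turned with array weights on the scans (median 0.16) and without the WT1 column in the table (median 0.02). None of the 16 passed in either source (limma). Of 15 genes of basement membrane remodelling, 14 had a lower mean on the Perp-null scans (median −0.22) and 6 in the Perp-null columns (median 0.08), and none passed (limma). The smallest unadjusted p of these on the scans were those of the sulfatase Sulf2 (log2 fold change −0.89), the inhibitor Timp2 (−0.64), Sulf1 (−0.44) and Mmp2, the gelatinase that cuts collagen IV (−0.94), and in the table these 4 had −0.06, −0.09, 0.08 and 0.46.

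Markers of the cell types a tooth germ can hold are given beside the 9 genes, since several lists differed between the labelled groups of scans. A lower mean was found for 61% of all features on the Perp-null scans and 48.5% in the Perp-null columns. All 10 endothelial markers had a lower mean on the Perp-null scans (median −1.04), and their summed signal, in multiples of the 75th percentile of the array, was 13.6 to 23.0 on the Perp-null scans, against 23.3 to 31.8 on the wild-type scans. By the columns, 2 of 10 had a lower mean (median 0.31), with a sum of 20.8 to 27.7 in the Perp-null columns, against 14.7 to 27.7 in the wild-type columns, lowest in WT3. Without the WT3 column the medians of the endothelial, dental mesenchyme and pericyte lists in the table were −0.18, −0.10 and −0.07, against the values above 0 given here with it. Dental mesenchyme markers had a lower mean for 8 of 8 on the scans (median −0.44) and 2 of 8 in the table (median 0.23), with sums of 20.9 to 33.9 on the Perp-null scans, against 39.8 to 46.0 on the wild-type scans, and of 30.6 to 42.9 in the Perp-null columns, against 23.4 to 41.7 in the wild-type columns. Pericyte and smooth muscle markers had a lower mean for 8 of 8 on the scans (median −0.37) and 3 of 8 in the table (median 0.27), with sums of 29.0 to 39.0 on the Perp-null scans, against 41.3 to 46.5 on the wild-type scans, and of 37.6 to 50.6 in the Perp-null columns, against 34.1 to 45.6 in the wild-type columns. Epithelial markers went differently: 2 of 8 had a lower mean on the scans (median 0.15), with sums of 235 to 251 on the Perp-null scans, against 225 to 252 on the wild-type scans, and 5 of 8 in the table (median −0.02), with sums of 211 to 233 in the Perp-null columns, against 237 to 250 in the wild-type columns. All markers of these 4 lists were well above background on all 6 scans, so the defining markers of tooth epithelium and mesenchyme were present. Their part in the values of the basement membrane genes was not tested.

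Macrophage markers had a lower mean for 5 of 5 on the Perp-null scans (median −0.80, sums of 5.11 to 6.82 for Perp-null, against 9.11 to 10.8 for wild type) and for 2 of 5 in the table (median 0.11, sums of 5.57 to 8.57 for Perp-null, against 5.17 to 10.7 for wild type). Schwann cell and nerve markers had a lower mean for 3 of 5 in each source (medians −0.08 on the scans, which turned to 0.02 with quantile normalization and to 0.34 without the PN2 scan, and −0.31 in the table), with sums on the scans of 10.1 to 17.0 for Perp-null, against 11.5 to 14.7 for wild type, and in the columns of 10.7 to 11.1 for Perp-null, against 11.7 to 16.8 for wild type. Skeletal muscle markers had a lower mean for 0 of 6 on the scans (median 0.76, but 0.10 without the PN3 scan, 0.10 with normexp and the 75th percentile, and −1.67 without PN1, PN3 and WT2) and 4 of 6 in the table (median −0.57, but 0.09 with array weights), with sums on the scans of 0.80 to 5.21 for Perp-null, against 0.82 to 2.17 for wild type, and in the columns of 1.24 to 3.31 for Perp-null, against 2.14 to 3.82 for wild type. No marker passed on the scans (limma). In the table Esam (log2 fold change −1.24, limma adjusted p = 0.0286), Myh11 (−1.38), Cldn4 (−1.60) and Des (−1.66) fell, and Myog (1.28) rose, the last 4 with limma adjusted p of 0.0216 to 0.0403. Of all features, 23.6% passed there. Myog was well above background on 3 of 6 scans only. On the scans these 5 had −0.42, −0.30, 0.03, 0.01 and 0.97, and in the table none of them passed without the PN2 column.

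**Figure D4:**
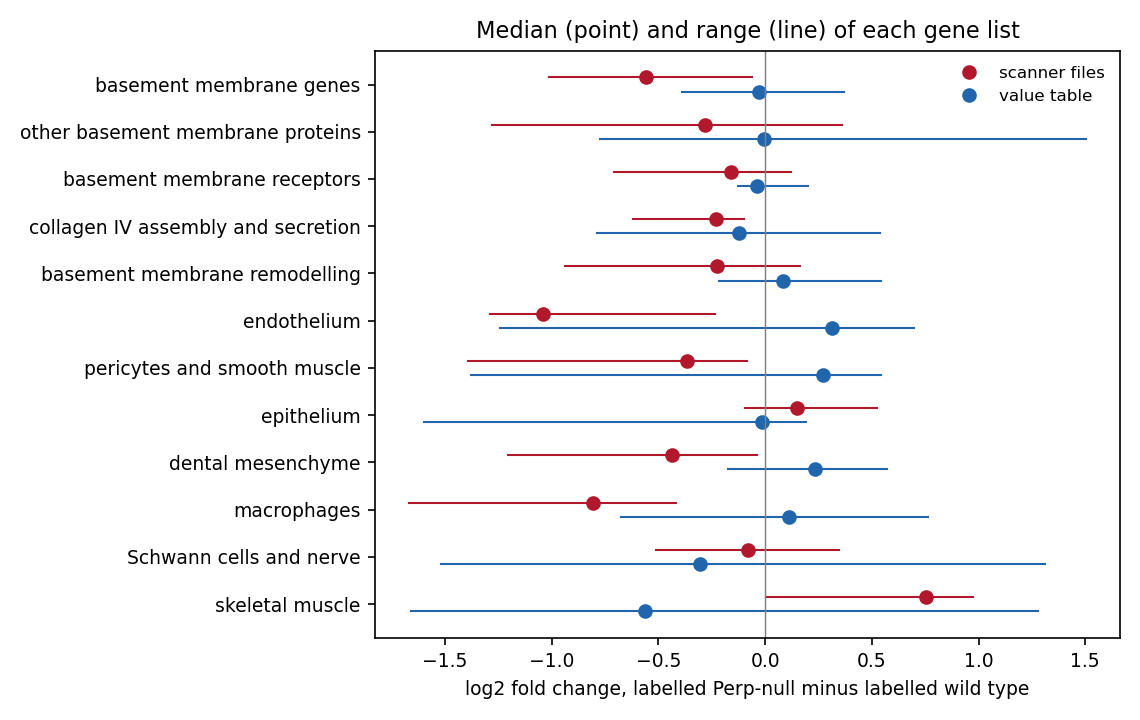
Median (point) and range (line) of the log2 fold change (horizontal axis), labelled Perp-null minus labelled wild type, for the basement membrane genes, 4 related lists and 7 lists of cell type markers, on the scans (red) and in the value table (blue). The endothelial median is −1.04 on the scans and 0.31 in the table, and the basement membrane genes stand at −0.56 and −0.03.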

How the data were processed

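Lower 1st molar RNA was labelled with Cy3 and hybridised to one-colour Agilent mouse arrays, per the labels' protocols. The deposited scanner files hold spot intensity. Feature Extraction by Agilent made them, in release 10.5.1.1 by the file headers and 10.3 by the submitters' processing notes. Per the file headers, background was subtracted from the processed signal, and arrays were not scaled to each other. The authors' value table holds log2 values of unstated origin. Its columns share 1 sorted distribution (largest SD 0.04 between values of equal rank) and have medians of 8.36 to 8.39. They fit raw, unsubtracted spot signals with a slope near 1 on the log2 scale, and are not centred by gene. Its scale and centring could therefore be set, while the normalization tool stays unknown. The scan behind the PN2 column is unknown too, since its nearest scan was at an SD of 0.388. By the scanner files, each labelled group lay on its own slide, so slide and group cannot be told apart, and arrays of 1 replicate number shared a slide position.

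From the scanner files, log2 of the processed signal minus log2 of each array's 75th percentile was used, without the 1417 control spots and without outlier spots (4 to 68 per array, none of a basement membrane gene). A RefSeq table of assembly GRCm38.p6, joined on accessions without versions, named 24844 of 41174 gene probes (60.3%). The array design's headers name mm9, so gene coordinates are not given. Kept were probes well above background on 3 or more of 6 scans, the probe of highest mean stood for a gene, and 26677 features were tested, the same ones in the value table. Comparisons between labelled groups used lmFit and eBayes (with trend) of limma 3.58.1, under R 4.3.3, and Benjamini-Hochberg adjustment over all features, at 0.05, after the fit had been tested on simulated data. The value table was planned as an alternative and is given throughout because its labels follow Perp. Levels were not compared between probes.

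Deviations from the group means correlated between arrays of the same replicate number at 0.84, 0.88 and 0.19 on the scans. These were above the bound of 0.1 set for pairs. In the table the correlations were 0.41, 0.39 and −0.02, so it was not treated as paired. The scan values given for single genes nonetheless come from the fit without pairing, with the replicate block as an alternative. With the block on the scans, the limma unadjusted p was lower for Nid1 (0.00161) and Lama4 (0.00378). It was higher for Nid2 (0.0157) and Lamb1 (0.0298). The labels state no pairing. The genes, the lists and the tests were chosen with earlier results of these data known. Named were the members, up to 4 genes per list by smallest p, the 3 genes most like each of 6 members (some results under these rules are not reported here), Perp and, after their values had been seen, Xist, the Y-linked genes and Btbd9. The alternatives were other scalings, background corrections, filters, probe rules and limma settings, the replicate block, and leaving out arrays.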

Additional observations from a re-analysis of the deposited data

How the results depend on the processing

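The count of 0 basement membrane genes past the threshold held on the scans under quantile normalization, median scaling, normexp, other dim-probe filters, other probe rules, other eBayes settings, the replicate block and each left-out array or replicate number, and in the value table under each alternative run, where the lowest adjusted p of any of the 9 genes was 0.0715 (Lamb2, replicate block). Over all alternatives, 212 fold changes of single genes on the scans and 135 in the table kept their direction and side of the threshold, 8 and 18 reversed, and 5 and 0 came to pass it. The scalings set the median of all features between −0.23 (normexp with the 75th percentile) and 0.00 (normexp with quantile), and 7 to 9 of the 9 genes lay below that median, 8 in the values reported.

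Exceptions among the counts and the single genes on the scans were these, and the cause was not tested unless the setting itself shows it. With array weights 560 features passed, among them 3 of the 9 genes (Nid1, adjusted p = 0.0140, Nid2, 0.0189, and Lama4, 0.0195), and Perp (1.20) and Hspg2 (0.30) reversed. Leaving out the PN1, PN3 and WT2 scans, chosen after the data had been seen, left 1 Perp-null scan, assumed to vary like the others. Then 12078 features passed, 2 of the 9 genes passed (Nid2, adjusted p = 0.0450, and Hspg2, 0.0325), 3 were lower at an unadjusted p under 0.05, Lamb2 reversed (0.10), and Perp had −12.74. The count of 5 lower at an unadjusted p under 0.05 was 0 with median scaling and 3 without trend, and the count of 5 not overlapping was 0 with median scaling. Normexp with the 75th percentile and the replicate block each gave 1 feature, Btbd9. In the value table Nid1 (0.37), Lama4 (0.17) and Lama5 (0.13) reversed, 6290 features passed, and the counts were 1 at an unadjusted p and 1 not overlapping.

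Leaving out arrays from the scans gave 0 to 0 features, 0 to 0 of the 9 genes past the threshold, 2 to 6 lower at an unadjusted p (2 without WT1, 3 without PN1 and 3 without WT2), 5 to 8 not overlapping and 7 to 9 with a lower mean, and fold changes of −4.25 to 3.65 for Perp, −0.13 to 0.030 for Lamb2 (0.0055 without PN1, 0.030 without replicate 1 in both groups) and −0.29 to 0.019 for Lama5 (0.019 without replicate 1 in both groups). In the table it gave 1 to 5919 features (1 without PN2, 786 without PN3, 3206 without WT1, 2701 without WT3, 2689 without replicate 1, 1 without replicate 2 and 1 without replicate 3 in both groups), 0 to 1 at an unadjusted p, 1 to 2 not overlapping and 2 to 8 with a lower mean. The fold changes there were −0.053 to 0.59 for Nid1, −0.34 to 0.18 for Nid2, −0.58 to 0.15 for Hspg2, −0.22 to 0.16 for Col4a1, −0.22 to 0.11 for Col4a2 and −0.33 to 0.51 for Lama4. Without replicate 1 in both groups Nid2 (0.08), Col4a1 (0.065) and Col4a2 (0.02) reversed, as did Nid2 (0.065) without replicate 2 and Lama4 (−0.10) without replicate 3 in both groups. Of the other table settings, 1543 features passed with probes well above background on all 6 scans, 50 among features as bright as the 9 genes and 1 with the replicate block. The block left 2 of the 9 genes lower at a limma unadjusted p under 0.05, Lamb2 (0.0180) and Hspg2 (0.0222). With array weights that count was 0 and Lama4 reversed (−0.15). Medians of the lists moved too: on the scans, array weights gave 0.16 for collagen IV assembly, −0.0016 for receptors and −0.65 for pericytes, and leaving out the PN1, PN3 and WT2 scans gave −0.65 for other basement membrane proteins, −0.57 for collagen IV assembly, −0.44 for endothelium, −0.97 for Schwann cells and −1.67 for muscle.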
